A study of Mus musculus with 7 samples.

Results

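Tight junctions seal the space between neighbouring epithelial cells and, in the liver, separate bile from blood along the bile canaliculi between hepatocytes and along the lumen of bile ducts. Their strands are built from claudins, a family of membrane proteins of which some tighten the barrier and others form pores for ions or water. Occludin sits in the same strands, and the plaque proteins ZO-1 (Tjp1) and cingulin (Cgn) tie the strands to the actin cytoskeleton.

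The transcripts of 9 claudin and tight junction genes, of 55487 genes in the count table, were examined in mouse precision-cut liver slices (PCLS). The members were Cldn1, Cldn2, Cldn3, Cldn5, Cldn12, Cldn14, Ocln, Tjp1 and Cgn. They were selected by gene symbol, and Cldn3 was picked for the list on the same contrast that is described here, because its level was lower in every treated library. The values of Cldn3 are therefore given as a description with no p-value, and where it is among genes counted past a threshold, that follows from its choice. Members with a sufficient count for the fit across the whole table numbered 8, and Cldn14 did not pass the filter on low counts.

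The slices came from the livers of healthy adult male BALB/c mice, measured 250 µm by 3 mm and were kept for 3 days in supplemented Williams' Medium E. Control slices (CTR, n = 3) received no further agent, and the other slices (VPA, n = 4) were cultured with 2.5 mM valproate, an antiepileptic drug and histone deacetylase inhibitor. The labels give no other agent in either group, and the comparison asks how valproate in the medium changes the slice's transcripts. Whole slices were sequenced from the 3′ end, so fewer cells of a type and less RNA per cell cannot be told apart. The labels give slice culture numbers 71, 72 and 74 in both groups and 73 for VPA replicate 1. The study's methods describe a biological repeat as the liver of a different mouse, while the labels do not tie each library to an animal, and the p-values measure the spread between these libraries.

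The libraries held 1400887 to 4773750 counts on genes. The VPA libraries detected 14359 to 16761 genes and the CTR libraries 17744 to 19756. Levels are given in CPM, the counts of a gene scaled to a common library size, after TMM normalization. A 3′ library gives about 1 tag per transcript whatever its length, so CPM values are set side by side between genes without division by length. Where a gene had no count, a level of up to 0.591 CPM in the deepest and 2.41 CPM in the shallowest library (3 counts) is still allowed by counting error alone. Of the 10876 genes tested, 2279 (21.0%) had no count in one library and at least 20 counts in another of the same group. A zero in a single library is thus common in this table. All 10 hepatocyte markers of the list used had counts, and their summed level was 8503 to 21756 CPM in CTR and 5696 to 18422 CPM in VPA. Adgre1, a macrophage marker, Ass1, a urea cycle enzyme, and Abcb11, the canalicular bile salt pump, were listed at 0 in all 7 libraries.

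Cldn3 encodes a barrier-forming claudin of epithelia and, with claudin-4, a receptor for the enterotoxin of Clostridium perfringens. The gene lies on the forward strand at chr5:134986214-134987472 (GRCm38) and consists of 1 exon. Its level was 156, 128 and 123 CPM in the 3 CTR libraries. In the 4 VPA libraries it was 38.5, 59.0, 54.6 and 40.8 CPM. Every VPA library was below every CTR library, and the lowest CTR library stood well above the highest VPA library. The group means were 136 ± 18.2 CPM (SD, n = 3) and 48.2 ± 10.1 CPM (SD, n = 4), a log2 difference of -1.49 (SE 0.208) or 2.80-fold. The values rested on 1642 counts over the 7 libraries. Among the slice cultures sampled under both conditions, the level was 123 CPM in CTR and 54.6 CPM in VPA for culture 71, 156 and 40.8 CPM for culture 72, and 128 and 59.0 CPM for culture 74. Wbscr25, which overlaps Cldn3 on the other strand, had 7 counts in all.

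**Figure D1:**
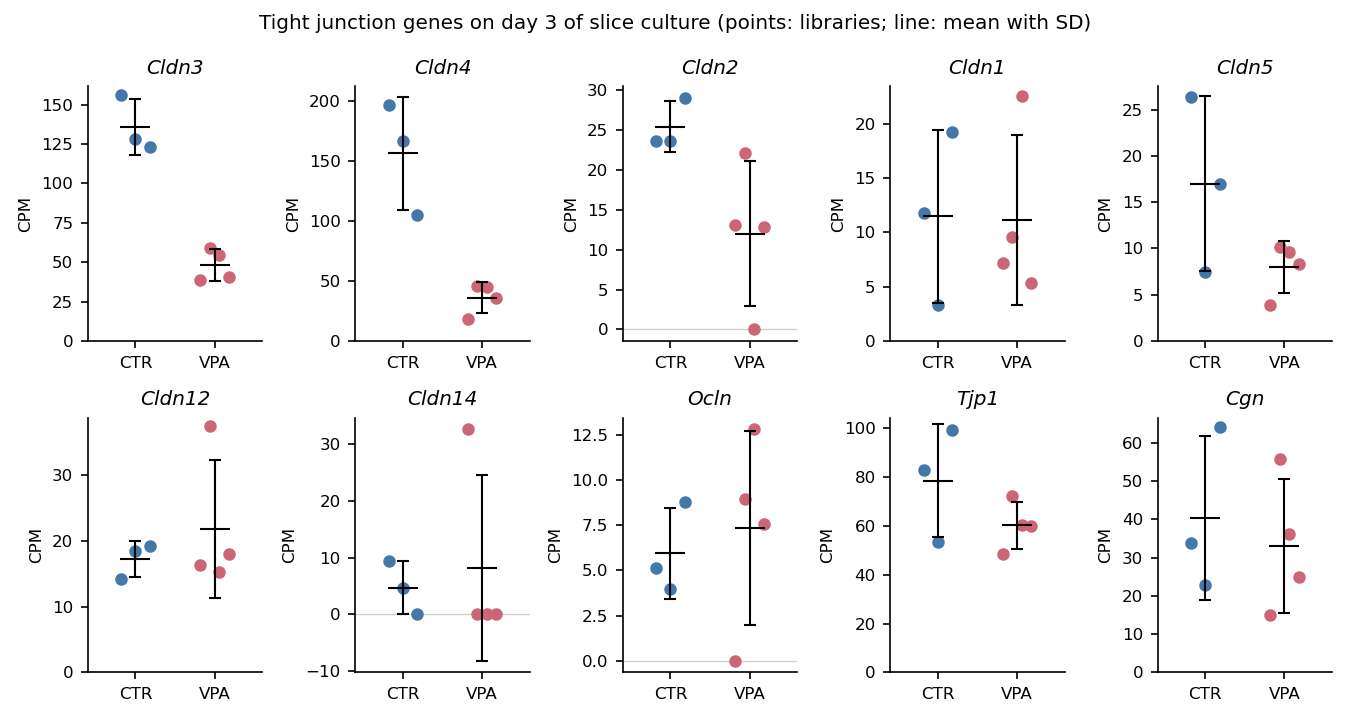
Level of each of the 9 members and of Cldn4 in CPM after TMM scaling, 1 point per library, with the mean and SD of the 3 CTR and 4 VPA libraries. The groups are apart for Cldn3, Cldn4 and Cldn2 and overlap for the other genes.

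Cldn4 is not a member, but its protein binds the same enterotoxin and is known from bile duct epithelium. Its start lies 39.3 kb before that of Cldn3, and the gene stands on the reverse strand at chr5:134945119-134946934 with 1 exon. Its level was 197, 167 and 105 CPM in CTR. In VPA it was 18.3, 45.8, 45.0 and 35.5 CPM. The groups did not overlap, and the means were 156 ± 46.8 CPM (SD, n = 3) and 36.1 ± 12.8 CPM (SD, n = 4). The log2 difference was -2.11 (SE 0.350), or 4.31-fold. With edgeR's quasi-likelihood test the adjusted p was 0.142 over all genes tested, and with DESeq2 it was 9.7e-05. At the threshold of 0.05, edgeR called 0.00919% of all genes tested in either direction and DESeq2 called 0.746% lower.

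The bases before both genes are shown because these neighbours had the largest log2 differences among the claudins in the edgeR fit and stand on opposite strands. They are the 250 bases upstream of the RefSeq start (GRCm38.p6), read 5′ to 3′ on the strand of the gene, and cover chr5:134985964-134986213 on the forward strand for Cldn3 and chr5:134946935-134947184 on the reverse strand for Cldn4. Capitals mark a GC box (GGGCGG), an E-box (CAGGTG) and an AP-1 motif (TGANTCA), each searched on both strands.
Cldn3: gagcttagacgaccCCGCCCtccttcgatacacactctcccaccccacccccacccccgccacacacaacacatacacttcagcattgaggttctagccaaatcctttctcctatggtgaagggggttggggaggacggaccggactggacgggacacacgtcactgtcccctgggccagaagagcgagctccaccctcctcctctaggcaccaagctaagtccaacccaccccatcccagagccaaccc
Cldn4: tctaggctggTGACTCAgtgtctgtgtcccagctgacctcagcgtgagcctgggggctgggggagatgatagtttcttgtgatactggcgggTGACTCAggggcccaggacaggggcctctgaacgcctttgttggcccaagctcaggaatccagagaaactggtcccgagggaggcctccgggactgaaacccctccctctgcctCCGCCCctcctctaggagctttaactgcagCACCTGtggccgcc

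The Cldn3 stretch holds 1 GC box, 236 bases before the start, and has a GC content of 60.8% with 9 CpG dinucleotides. The Cldn4 stretch holds AP-1 motifs at 240 and 158 bases, a GC box at 44 bases and an E-box at 14 bases before the start, and has a GC content of 62.0% with 7 CpG dinucleotides. Over 32851 mouse promoters of the same length, the median GC content was 52.4% with 6 CpG dinucleotides. A GC box was present in 32.7% of them, an E-box in 17.2% and an AP-1 motif in 6.75%. TATAAA was found in 12.4% and CCAAT in 33.8% of promoters and in neither of these stretches. The matches are a description of letters and no measurement of binding.

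The region of 100 kb on either side of Cldn3 holds 9 other protein-coding genes, of which 5 were tested. Mettl27, 53.8 kb before Cldn3 and on the far side of Cldn4, had 66.3 CPM in CTR and 56.9 CPM in VPA (log2 difference -0.22, adjusted p = 0.905 by edgeR). Bud23 and Dnajc30, 78.7 and 78.0 kb after it, had log2 differences of 0.17 and 0.05 with edgeR adjusted p-values of 0.951 and 0.983. Abhd11, 22.9 kb after it, had 23.5 CPM in CTR and 8.72 CPM in VPA, with no count in 2 VPA libraries, and its log2 difference of -1.44 had an SE of 1.41 (adjusted p = 0.905 by edgeR). The other 4 genes, Tmem270, Cldn13, Stx1a and Vps37d, had too few counts to test. The log2 differences of Mettl27, Bud23 and Dnajc30 were thus smaller than those of Cldn3 and Cldn4, and that of Abhd11 was too imprecise to place.

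**Figure D2:**
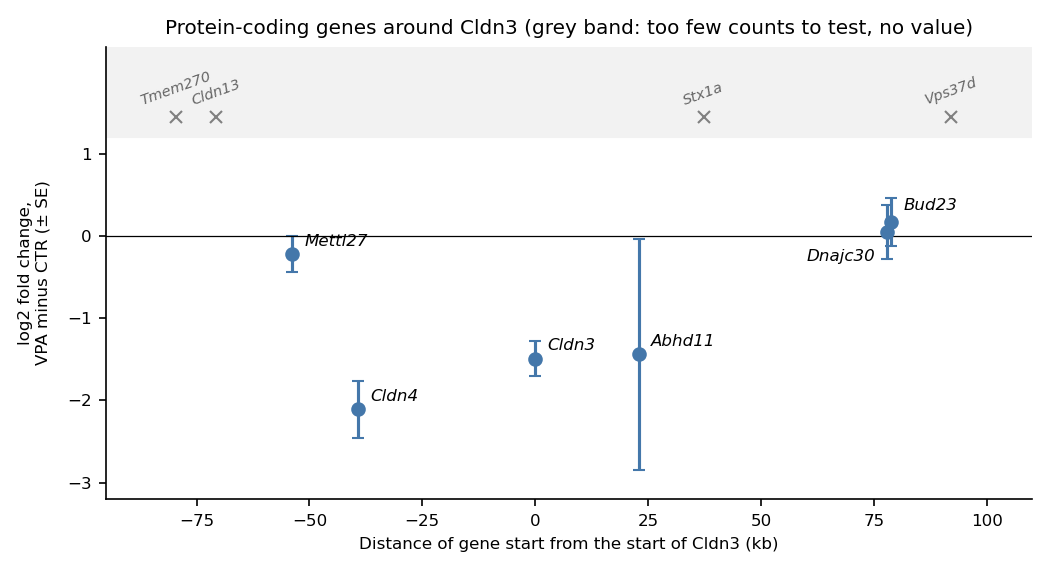
Log2 difference between VPA and CTR (edgeR, bars are 1 SE) of protein-coding genes around Cldn3, by the distance of each gene's start from that of Cldn3 in kb. Genes with too few counts stand in the grey band with no value, Cldn3 and Cldn4 lie at -1.49 and -2.11, and Abhd11 has a wide bar.

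Among the other claudins, claudin-2 forms pores for cations and water and is known for a gradient across the liver lobule. Cldn2 (chrX:139800828-139811386, forward strand, 2 exons) had 23.6, 23.7 and 29.1 CPM in CTR and 13.1, 22.1, 0 and 12.8 CPM in VPA. The groups did not overlap, but the highest VPA library came close to the lowest CTR library. The means were 25.4 ± 3.12 CPM (SD, n = 3) and 12.0 ± 9.10 CPM (SD, n = 4). The log2 difference was -1.06 (SE 0.943, adjusted p = 0.896 by edgeR), so the difference did not hold against the spread. It was -0.66 without VPA replicate 3, the library with no count. Over all genes tested, groups that did not overlap with VPA lower made up 7.41%, and among the 8 members tested they were 2, Cldn3 and Cldn2. The place of Cldn3 there is the reason for its choice, and without it the number was 1 of 7.

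Cldn5 encodes the claudin of endothelial cells and lies on the forward strand at chr16:18776847-18778262 with 1 exon. It had 26.4, 7.49 and 17.0 CPM in CTR and 3.92, 10.1, 9.63 and 8.31 CPM in VPA. The groups overlapped because CTR replicate 2 lay within the VPA range, and the log2 difference was -1.07 (SE 0.608, adjusted p = 0.732 by edgeR). It was -0.61 without CTR replicate 1 and -0.51 with limma-voom. The summed level of 12 endothelial markers was 342 to 396 CPM in CTR and 83.6 to 306 CPM in VPA. Of the 9 endothelial markers tested, 8 were lower, 5 of them without overlap (7.41% of all genes tested), with a median log2 difference of -1.39. Tek, the angiopoietin receptor, was the 1 marker of these at an unadjusted p under 0.05 (edgeR), beside 4.62% of all genes tested that were lower at that level. It had 13.0, 16.0 and 16.4 CPM in CTR and no count in any VPA library. The adjusted p was 0.239 by edgeR and 9.7e-05 by DESeq2, which called 0.746% of all genes it tested lower at 0.05. Among the endothelial markers, Cdh5, the endothelial cadherin, had 80.0, 65.2 and 76.2 CPM in CTR and 0, 0, 29.7 and 26.4 CPM in VPA. The part of these markers in the Cldn5 values was not tested.

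Cldn1 (chr16:26356642-26371841, reverse strand, 4 exons), a claudin needed for the barrier of many epithelia, had 11.8, 3.35 and 19.2 CPM in CTR and 7.18, 9.53, 22.5 and 5.29 CPM in VPA. The groups overlapped over most of their range, the log2 difference was -0.04 (SE 0.778, adjusted p = 0.997 by edgeR), and its sign was not stable. Without CTR replicate 3 it was 0.53, and without VPA replicate 1, 2 or 4 it was 0.12, 0.04 or 0.19. Cldn12 (chr5:5489537-5514958, reverse strand), a claudin widely present in epithelia, had 14.2, 18.5 and 19.2 CPM in CTR and 16.3, 37.5, 15.3 and 18.1 CPM in VPA. VPA replicate 2 alone stood above the CTR range, and the log2 difference of 0.34 (SE 0.430, adjusted p = 0.937 by edgeR) was -0.06 without that library. Cldn14 (chr16:93919031-94008837, reverse strand), known from the inner ear, kidney and liver, had 24, 24 and 0 counts in CTR and 50, 0, 0 and 0 counts in VPA. A count was thus found in 2 CTR libraries and 1 VPA library, and no fold is given.

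Ocln, the gene of occludin (chr13:100496507-100552718, reverse strand), had 5.12, 3.94 and 8.77 CPM in CTR and 0, 8.92, 12.8 and 7.55 CPM in VPA. The groups overlapped, and the log2 difference of 0.31 (SE 1.16, adjusted p = 0.975 by edgeR) was -0.09 without VPA replicate 3. The SE is close to the size of the difference seen for Cldn3.

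The plaque genes were more highly represented. Tjp1 (chr7:65296165-65527781, reverse strand), the scaffold that binds claudin tails, had 82.7, 53.4 and 99.2 CPM in CTR and 48.3, 72.3, 60.2 and 59.7 CPM in VPA. The ranges overlapped, and the means of 78.5 ± 23.2 CPM (SD, n = 3) and 60.1 ± 9.78 CPM (SD, n = 4) gave a log2 difference of -0.38 (SE 0.253, adjusted p = 0.814 by edgeR). This difference was -0.60 without CTR replicate 2 (unadjusted p 0.0318, adjusted p 0.627 by edgeR) and -0.20 without CTR replicate 3. Cgn (chr3:94760069-94786492, reverse strand) had 33.9, 22.9 and 64.1 CPM in CTR and 15.0, 55.7, 36.1 and 24.9 CPM in VPA. Its log2 difference of -0.27 (SE 0.514, adjusted p = 0.956 by edgeR) was 0.20 without CTR replicate 3.

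No member passed an adjusted p of 0.05 with edgeR. Cldn3 was the 1 member with an unadjusted p under 0.05 and the 1 member past the adjusted threshold with DESeq2, and neither is a result, since it was picked on this contrast. Of the 8 tested, 6 were lower and 2 higher, with a median log2 difference of -0.32 beside -0.06 over all genes tested. Without Cldn3, 5 were lower and 2 higher with a median of -0.27, and none had an unadjusted p under 0.05 in either direction in the edgeR fit of all libraries. In all genes tested, 4.62% were lower and 3.65% higher at that level.

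In CTR the order of mean levels among the members was Cldn3, Tjp1, Cgn, Cldn2, Cldn12, Cldn5, Cldn1, Ocln and Cldn14. The ranges over libraries did not overlap between Cldn3 and Tjp1 or between Cldn2 and Cldn12, and they overlapped for the other neighbours in that order. In VPA, Tjp1 came before Cldn3, and their ranges of 48.3 to 72.3 CPM and 38.5 to 59.0 CPM overlapped.

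The table lists 32 claudin genes, of which 13 had a count and 8 had at least 20 counts in all. The other 19 were at 0 in every library, and no stretch of 50 bases was shared among the 13 genes with a count. The summed claudin level was 373 ± 65.5 CPM (SD, n = 3) in CTR and 148 ± 29.1 CPM (SD, n = 4) in VPA. Without Cldn3 and Cldn4 it was 81.1 ± 13.7 CPM (SD, n = 3) and 63.6 ± 16.7 CPM (SD, n = 4), and the ranges of 65.4 to 90.6 CPM and 44.6 to 81.5 CPM overlapped. Cldn3 and Cldn4 made up 77.9% ± 4.97 (SD, n = 3) of the claudin level in CTR and 56.8% ± 9.42 (SD, n = 4) in VPA. These sums include Cldn3, whose lower level chose it.

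**Figure D3:**
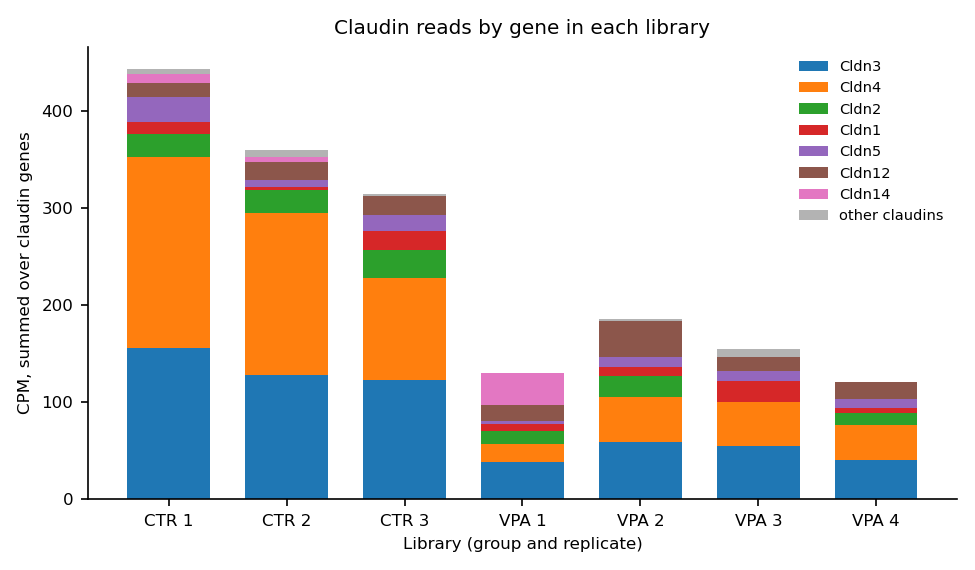
Summed level of claudin transcripts in each library in CPM, split into Cldn3, Cldn4, Cldn2, Cldn1, Cldn5, Cldn12, Cldn14 and the remaining claudins. The bars reach 315 to 444 CPM in CTR and 121 to 186 CPM in VPA, while the part without Cldn3 and Cldn4 spans 44.6 to 90.6 CPM over both groups.

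Markers of bile duct cells, an epithelium that carries Cldn3 and Cldn4, overlapped between the groups. The summed level of 10 such markers was 268 to 616 CPM in CTR and 258 to 742 CPM in VPA, and of the 4 tested 2 were lower and 2 higher. Sox9, a transcription factor of bile duct cells, had 79.2, 108 and 80.0 CPM in CTR and 120, 123, 143 and 80.8 CPM in VPA. Spp1, osteopontin, held much of the sum, with 345, 135 and 530 CPM in CTR and 131, 341, 576 and 156 CPM in VPA. Krt19 was at 0 in all CTR libraries and had 0, 14.1, 0 and 6.80 CPM in VPA, and Muc1 and Krt23 were at 0 in all. Epcam had 11.4, 10.2 and 4.39 CPM in CTR and 3.26, 0, 8.83 and 14.3 CPM in VPA. The part of these markers in the Cldn3 and Cldn4 values was not tested. Macrophage markers summed to 156 to 188 CPM in CTR and 200 to 327 CPM in VPA. The 4 tested were all higher, with a median log2 difference of 0.51 and none at an unadjusted p under 0.05 (edgeR). Mesothelial markers summed to at most 18.1 CPM in CTR and 19.6 CPM in VPA. Stellate cell markers summed to 1019 to 2233 CPM and 882 to 2151 CPM, but Dcn, the 1 marker of the 6 with a positive log2 difference (0.51), held much of that sum, and the other 5 were lower, with a median log2 difference of -0.98 over the list. Col1a1, the collagen gene among them, had 949, 515 and 704 CPM in CTR and 238, 172, 244 and 261 CPM in VPA, without overlap. Its log2 difference was -1.66 (SE 0.239), with an adjusted p of 0.112 by edgeR and 4.43e-07 by DESeq2. The part of the macrophage and stellate cell markers in the Cldn3 and Cldn4 values was not tested either.

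The other genes of the junction were taken from lists of further claudins, membrane and plaque genes. Of 57 listed tight junction genes besides the members, 31 were tested, 21 were lower and 10 higher, and the median log2 difference was -0.13. At an unadjusted p under 0.05 (edgeR) there were 4 lower, among them Cldn4, Cgnl1 and F11r, and 0 higher, beside 4.62% and 3.65% of all genes tested. None passed the adjusted threshold with edgeR. In 1 case, Cldn4, DESeq2 gave an adjusted p under 0.05. Without CTR replicate 3 the number lower was 1, and without VPA replicate 1 or 4 the number higher was 1. With slice culture added to the edgeR model as a block, 2 were lower and 1 higher. Cgnl1 (chr9:71626509-71771602), which encodes paracingulin, had 164, 133 and 215 CPM in CTR and 49.0, 61.5, 123 and 95.9 CPM in VPA. The groups did not overlap, and the log2 difference was -1.06 (SE 0.334, adjusted p = 0.462 by edgeR). F11r, the gene of the adhesion molecule JAM-A, had 244 ± 33.6 CPM (SD, n = 3) and 174 ± 37.0 CPM (SD, n = 4), with overlapping groups and a log2 difference of -0.49 (SE 0.20, adjusted p = 0.575 by edgeR). With the slice culture block this difference was -0.38, and its unadjusted p (edgeR) went from 0.0424 to 0.139.

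The other membrane genes did not pass an unadjusted p of 0.05 with edgeR. Marveld2, the gene of tricellulin, at the corners where several cells meet, had 22.4 ± 1.5 CPM (SD, n = 3) and 14.3 ± 6.52 CPM (SD, n = 4), a log2 difference of -0.65 with an adjusted p of 0.790 (edgeR). Lsr, which brings tricellulin to those corners, had 178 ± 74.8 CPM (SD, n = 3) and 131 ± 41.9 CPM (SD, n = 4), with an adjusted p of 0.881 (edgeR). The log2 difference was -0.26 for the adhesion receptor Cxadr, with an SE of 0.273, and -0.04 for Jam2 with an SE of 0.679. The endothelial Esam had 0, 67.8 and 32.9 CPM in CTR and 26.1, 66.4, 0 and 40.0 CPM in VPA, and its difference could not be estimated with any precision (SE 1.48). Ildr2, an angulin of the same corners as Lsr and the 1 gene of the 8 tested on the membrane list with a positive log2 difference, had 4.33, 17.3 and 14.3 CPM in CTR and 15.0, 28.6, 40.9 and 23.4 CPM in VPA. Its log2 difference was 1.16 (SE 0.568, adjusted p = 0.665 by edgeR), the groups overlapped, and it was named after its values were seen. Cldn7 had 10, 22 and 0 counts in CTR and no count in VPA, and like Jam3 and Tjp3 it did not pass the filter of the edgeR fit. Jam3 had 22, 0 and 15 counts in CTR and no count in VPA. DESeq2 gave Jam3 a log2 difference of -5.7 (SE 2.82, unadjusted p 0.0433, adjusted p 0.617). Among the plaque genes, the polarity scaffold Pard3 had 127 ± 7.42 CPM (SD, n = 3) and 124 ± 14.4 CPM (SD, n = 4), a log2 difference of -0.03 (SE 0.148, adjusted p = 0.981 by edgeR). Afdn, the actin-binding afadin, was the 1 gene of these lists whose VPA libraries all lay above the CTR libraries, with 149 ± 5.81 CPM (SD, n = 3) and 175 ± 31.0 CPM (SD, n = 4) and an adjusted p of 0.847 (edgeR). Its lowest VPA library and its highest CTR library both rounded to 154 CPM, so the separation was a near tie. Afdn was named after its values were seen, as was the scaffold gene Patj, which had the lowest log2 difference of the plaque genes, -1.95 (SE 1.25, adjusted p = 0.789 by edgeR), with overlapping groups. Over all genes tested, 4.44% had VPA above CTR without overlap.

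Genes of the other cell junctions served for comparison. Of 10 adherens junction genes tested, 6 were lower and 4 higher, with a median log2 difference of -0.05 and none at an unadjusted p under 0.05. Cdh1, the gene of E-cadherin, had 58.6 ± 8.23 CPM (SD, n = 3) and 84.5 ± 23.7 CPM (SD, n = 4), a log2 difference of 0.53 with an adjusted p of 0.646 (edgeR). Ctnnb1, the gene of beta-catenin, had a log2 difference of -0.71 (SE 0.776) with an adjusted p of 0.922 (edgeR). Vcl, the gene of vinculin, named after its values were seen, had the lowest log2 difference of the adherens junction genes, -1.76 (SE 1.71, adjusted p = 0.905 by edgeR), with no count in 3 VPA libraries. Of 6 desmosome genes tested, 3 were lower and 3 higher, and Dsp, the desmoplakin gene, had 136, 141 and 211 CPM in CTR and 203, 92.5, 181 and 174 CPM in VPA. Dsc2, a desmosomal cadherin named after its values were seen, was the 1 desmosome gene at an unadjusted p under 0.05, beside 3.65% of all genes tested that were higher at that level, with a log2 difference of 1.14 and an adjusted p of 0.573 (edgeR). Of 6 gap junction genes 2 were tested, both higher in VPA, and Gja1 and Gjb1 had log2 differences of 0.29 (SE 0.418) and 0.07 (SE 1.38). Gjb2, which encodes a liver connexin, did not pass the filter on low counts. Whether the tight junction genes differed from these genes was not tested.

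**Figure D4:**
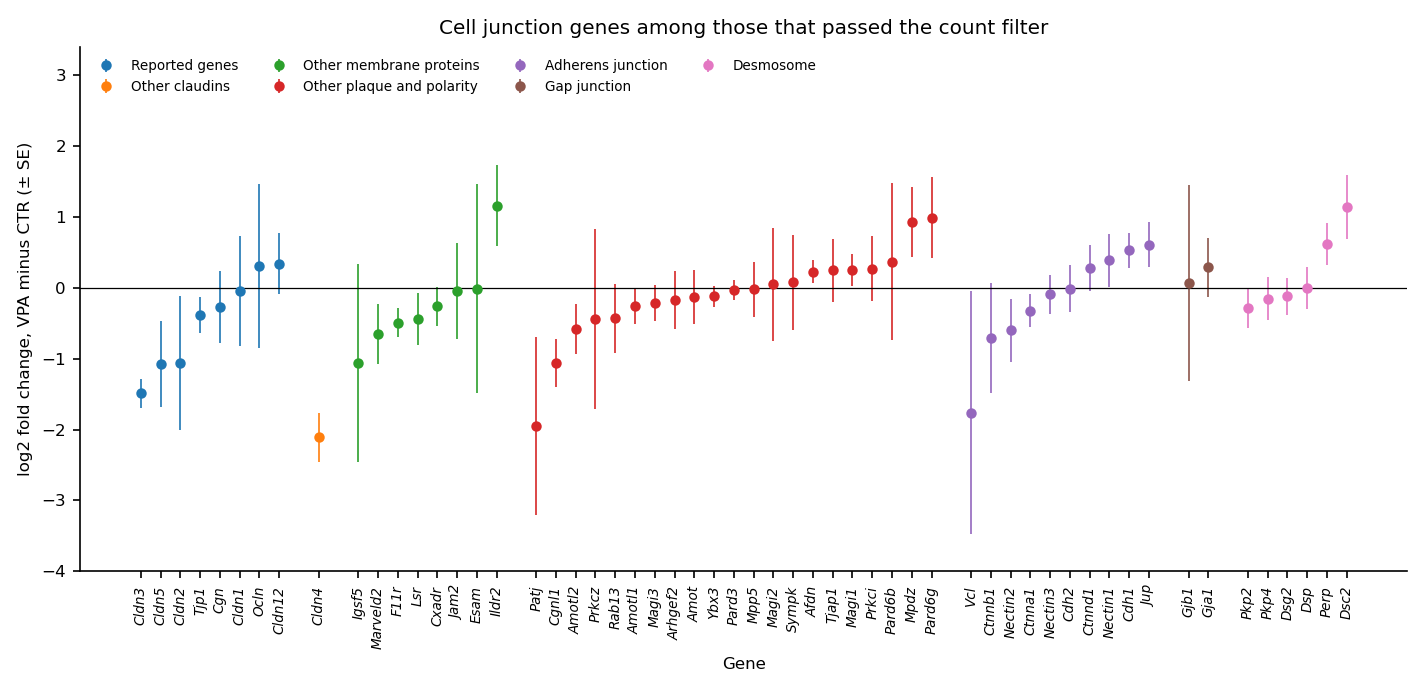
Log2 difference between VPA and CTR (edgeR, bars are 1 SE) of tested genes of the junction lists, 1 point per gene, coloured by group of genes, with 1 tested gene left out. Cldn4 at -2.11 and Cldn3 at -1.49 lie lowest among the claudins, while the plaque gene Patj at -1.95 (SE 1.25) and the adherens gene Vcl at -1.76 (SE 1.71) have wide bars.

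The genes whose profile over the 7 libraries was most like that of Cldn3 were sought among 6391 genes with a mean of at least 20 CPM. Likeness was the root mean square difference of log2 CPM, each gene centred on its own mean. The nearest were R3hcc1 at 0.271, Zfp704 at 0.280, Etv6, a transcriptional repressor, at 0.287, Vim, the intermediate filament gene of mesenchymal cells, at 0.293, and Srsf7, a splicing factor gene, at 0.296. Their log2 differences between VPA and CTR were -1.04, -1.37, -0.97, -1.08 and -1.27. Genes with the profile of Cldn3 had to be lower in VPA, so these differences and the ranks are a description set by the choice of Cldn3. Cldn4 ranked at 57 (0.441), Cgnl1 at 113 (0.483), Tjp1 at 696 (0.629) and Cgn at 2495 (0.798).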

How the data were processed

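RNA of 7 libraries of mouse PCLS (3 CTR, 4 VPA) had been prepared with a 3′ kit and read from one end. The authors trimmed the reads, mapped them with STAR to GRCm38 and used StringTie, and deposited raw counts per Ensembl gene, without normalization. How counting treated strand and reads mapping to several places is not given in the sources used here, so values of overlapping genes are uncertain. Groups and culture numbers came from the labels.

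Counts were analysed in R 4.3.3 with edgeR 4.0.16 (TMM, filterByExpr, robust quasi-likelihood test, condition only, Benjamini-Hochberg over 10876 genes, threshold 0.05). DESeq2 1.42.0, the tool of the study, and limma-voom (limma 3.58.1) were alternatives, as were other scalings, filters, replicate blocks and each library left out. Each library counted as 1 sample. Libraries of the same group all differed by more than sampling noise (chi-square per degree of freedom 13 to 24.3), which cannot show whether they came from different animals. Total counts of 1400887 to 4773750 per library limit precision for low genes. The main fit used no block. Library pairs with the same replicate number correlated in their deviations by -0.0539, 0.0546 and 0.107, and those of the same slice culture by 0.107, 0.0256 and 0.0546. CTR and VPA replicate 2, and CTR and VPA replicate 3, are the same pairs under both numberings. Correlations over all genes tested cannot show whether a shared slice culture affected a single gene.

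The members and all gene lists (further tight junction, adherens, gap and desmosome genes, epithelial regulators, canalicular and zonation genes, and cell type markers) were chosen with earlier results of these data known. Named were the members, a set of listed junction genes, further junction genes with no overlap, an unadjusted p under 0.05 and at least 10 CPM, the 5 nearest profiles to Cldn3, genes within 100 kb of it and cell type markers. GENCODE annotation of GRCm38 gave a symbol to 55227 genes. RefSeq promoters matched 10 of 10 genes sought. 1 listed gene is not reported here.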

Additional observations from a re-analysis of the deposited data

Results flagged for a closer look

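In 4 of 26 VPA groups of junction gene values examined, 1 library stood far from the other 3, where chance gives about 1 in 20 groups of normally distributed values. That rate does not apply to Cldn14 and Tjp3, whose other 3 VPA libraries had no count. Cldn12 reached 37.5 CPM in VPA replicate 2 and 15.3 to 18.1 CPM in the others. Cldn14 was at 32.6 CPM in VPA replicate 1 and at 0 in the others. Tjp3 was at 4.01 CPM (5 counts) in VPA replicate 3 and at 0 in the others. Marveld2 was at 24.1 CPM in VPA replicate 3 and at 10.8 to 11.3 CPM in the others. The cause of these values was not tested.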

How the results depend on the processing

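The number of members past the adjusted threshold was 0 with edgeR and 1 (Cldn3, whose choice used this contrast) with DESeq2 or with edgeR over genes of at least 10 counts in every library. For the other junction genes the number was 0, and 1 (Cldn4) under the same 2 settings. Both numbers stayed at 0 under each library left out and at an adjusted p under 0.1. The replicate block left 0 genes past the threshold over the whole table. Listed tight junction genes besides the members that were lower at an unadjusted p under 0.05 numbered 4, but 5 with DESeq2, 6 with limma-voom or no filter, 2 with a replicate block by slice culture and 1 to 4 with a library left out (1 without CTR replicate 3). Those higher numbered 0, but 2 with limma-voom, 1 with no filter, 3 with at least 10 counts in every library, 1 with either replicate block, and 0 to 1 with a library left out (1 without VPA replicate 1 or 4). The sign of the log2 difference turned for Cldn1 (-0.04) to 0.76 with limma-voom and to 0.22 and 0.34 with a replicate block by slice culture and by replicate number, with -0.62 to 0.53 over libraries left out. Ocln (0.31) turned to -0.36 with a replicate block by replicate number, was 0.76 with a replicate block by slice culture and ranged from -0.09 to 0.72 over libraries left out. Cgn (-0.27) was 0.01 with a replicate block by slice culture and -0.66 to 0.20 over libraries left out, and Cldn12 (0.34) was -0.06 to 0.48. Cldn2 (-1.06) was -1.65 and -1.69 with a replicate block by slice culture and by replicate number. The cause was not tested. Over the libraries left out, Cldn2 ranged from -1.54 to -0.66, Cldn5 from -1.44 to -0.61, Cldn3 from -1.60 to -1.38, Cldn4 from -2.35 to -1.89 (edgeR adjusted p 0.179 to 0.767), Cgnl1 from -1.32 to -0.87 and F11r from -0.61 to -0.38. The values of Cldn4, Cgnl1 and F11r under other settings were added after seeing the data. Cldn14 did not pass the filter of the edgeR fit, and DESeq2 gave it a log2 difference of 0.77 (SE 2.54, adjusted p = 1.0). Depth limits the genes below about 10 CPM, where a few counts decide a value.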

Other observations

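Other liver genes around the canaliculus and along the lobule were also read from the same fit. Of 13 listed canalicular genes 8 were tested, 5 lower and 3 higher, with a median log2 difference of -0.51 and none at an unadjusted p under 0.05. Rdx, the gene of radixin, which anchors canalicular transporters to actin, had 640, 370 and 846 CPM in CTR and 279, 423, 538 and 377 CPM in VPA, with overlapping groups and a log2 difference of -0.61 (SE 0.316, adjusted p = 0.694 by edgeR). Abcc2, the canalicular exporter of conjugated bilirubin, had a log2 difference of 0.24 (SE 0.417, adjusted p = 0.953 by edgeR).

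Of 8 epithelial regulators 4 were tested, 2 lower and 2 higher, with a median of 0.08. Zeb1, a repressor of epithelial genes, had 122, 109 and 138 CPM in CTR and 77.0, 136, 109 and 133 CPM in VPA. Hnf4a, a hepatocyte transcription factor, had a log2 difference of 0.27 (SE 0.548, adjusted p = 0.961 by edgeR). The 4 pericentral and the 4 periportal genes tested were each 2 lower and 2 higher, with medians of 0.10 and 0.05.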
